A study of Homo sapiens with 4 samples.

Results

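The genes described here are the DDX and DHX RNA helicases, taken as every gene whose annotated symbol is DDX or DHX followed by a number, without DDX4. There were 53 such genes, 37 DDX and 16 DHX, among the 18244 genes with a probe set of their own on the array. They were read in Kelly, an established neuroblastoma cell line of human origin whose MYCN gene is amplified and whose ALK receptor is active. All 4 arrays came from a derivative that had become resistant to TAE684, an ALK kinase inhibitor, and both groups were kept in 1 µM of the drug. Virus carried a short hairpin against BORIS (shBORIS, 2 arrays) or against luciferase (shLUC, 2 arrays, the control) for 24 h, and 48 h of puromycin selected the carriers before RNA was taken. BORIS is the product of CTCFL, the germ-line relative of the chromatin factor CTCF. Only this hairpin against BORIS was used, and the sources used here do not say whether the resistant derivative is a clone. The labels call the arrays of a group biological duplicates. As deposited, a p-value measures a spread between duplicates that is pooled over genes. Relative to the array median, it combines that pooled spread with the gene's own.

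DEAD-box (DDX) and DEAH-box (DHX) proteins are named after the letters of a conserved motif that binds and cleaves ATP. DEAD-box proteins prise short RNA duplexes apart locally, whereas DEAH-box proteins move along a strand and pull structures and proteins off it. Between them they drive splicing, ribosome assembly, mRNA export, translation and decay, and a few recognise viral RNA. Rapidly growing MYCN-amplified cells carry heavy ribosome production, which uses many of these enzymes.

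Each gene was represented by its brightest probe set, with intensity on a linear scale as deposited. Differences are shBORIS minus shLUC on the log2(intensity + 16) scale, which understates the change of dim genes. Fold changes are taken from these differences and are not ratios of the intensities. Because most genes were brighter on the shBORIS arrays, differences are given as deposited and relative to each array's median gene. The array medians differed by 0.48 between the groups, while the median intensity of the ERCC spike-in RNAs was 25.5 and 25.8 with shBORIS and 24.8 and 24.4 with shLUC. The spike-in medians were similar, but all lay under 62.2, the limit for testing a gene. Probe sets that dim carry little signal over background. The similar spike-in medians therefore cannot show whether a difference as deposited is a difference from the spike-ins. The sources used here do not say how the arrays were scaled. Genes with a mean intensity under 62.2 were not tested. A gene is called at a limma adjusted p under 0.05 over all 10946 genes tested. With 2 arrays a group, the smallest two-sided p of an exact permutation test is 0.333, so calls depend on limma's pooling of the spread across genes. In bulk RNA, fewer cells of a type and less RNA per cell cannot be told apart.

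The hairpin's target was lower, with CTCFL intensities of 701 and 737 under shBORIS against 3563 and 3376 under shLUC, a relative difference of -2.72 (SE 0.05, limma adjusted p = 7.89e-10). Replicates correlated at 0.997 and 0.996 across genes, which are not independent replicates. All 8 sympathoadrenal markers analysed, including HAND2, DBH and TH, were above the filter on every array, and none of the 4 leukocyte or the 4 epithelial markers was. Of the 3 endothelial markers VWF was above it, and of the 4 fibroblast markers COL1A1 and PDGFRB. COL1A1 read 451 and 515 with shBORIS and 729 and 779 with shLUC, whereas PDGFRB read 265 and 287 against 205 and 198. The summed fibroblast intensity was 769 to 858 with shBORIS and 977 to 1029 with shLUC, a difference carried by COL1A1, and its part in the results on the helicases was not tested.

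Most helicase genes tested were called higher with shBORIS as deposited, as were most of all genes tested. Of the 53 genes, 46 were tested. As deposited, 43 of the 46 were called higher and 3 lower, beside 77.2% of all genes tested called higher and 4.64% lower. Relative to the array median, 24 rose (52.2%) and 6 fell (13.0%), beside 30.3% and 28.8% of all genes tested, and 16 were not called. The median difference was 0.66 as deposited and 0.18 relative to the array median, where the median over all genes tested was 0.48 and 0.0014. With arrays centred on the median of all cellular probe sets, 32 helicase genes were called higher and 3 lower, beside 45.8% and 17.4% of all genes tested.

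Relative to the array median, 4 of the 24 rises and 3 of the 6 falls reached 1.5-fold. The 4 were DHX9, DDX46, DDX11 and DDX6, and the 3 were DHX32, DHX58 and DDX21. On all 46 helicase genes tested, the deposited intensities of the shBORIS and the shLUC arrays did not overlap. Most genes were shifted on that scale, with 77.2% of all genes tested called higher. How many of all genes tested did not overlap was not counted, so the lack of overlap is not read as a trait of the helicases. The median relative difference depended on brightness, from -0.17 in the dimmest decile of genes tested to 0.14 in the ninth, and 35 of the 46 helicase genes lay in the brighter 5 deciles. Set against the median of their own decile, 27 of the 46 helicase genes were above it, with a median excess of 0.09. The DDX and the DHX genes were counted apart, with 15 of 30 DDX genes higher and 2 lower, and 9 of 16 DHX genes higher and 4 lower. The difference between these groups was not tested.

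**Figure D1:**
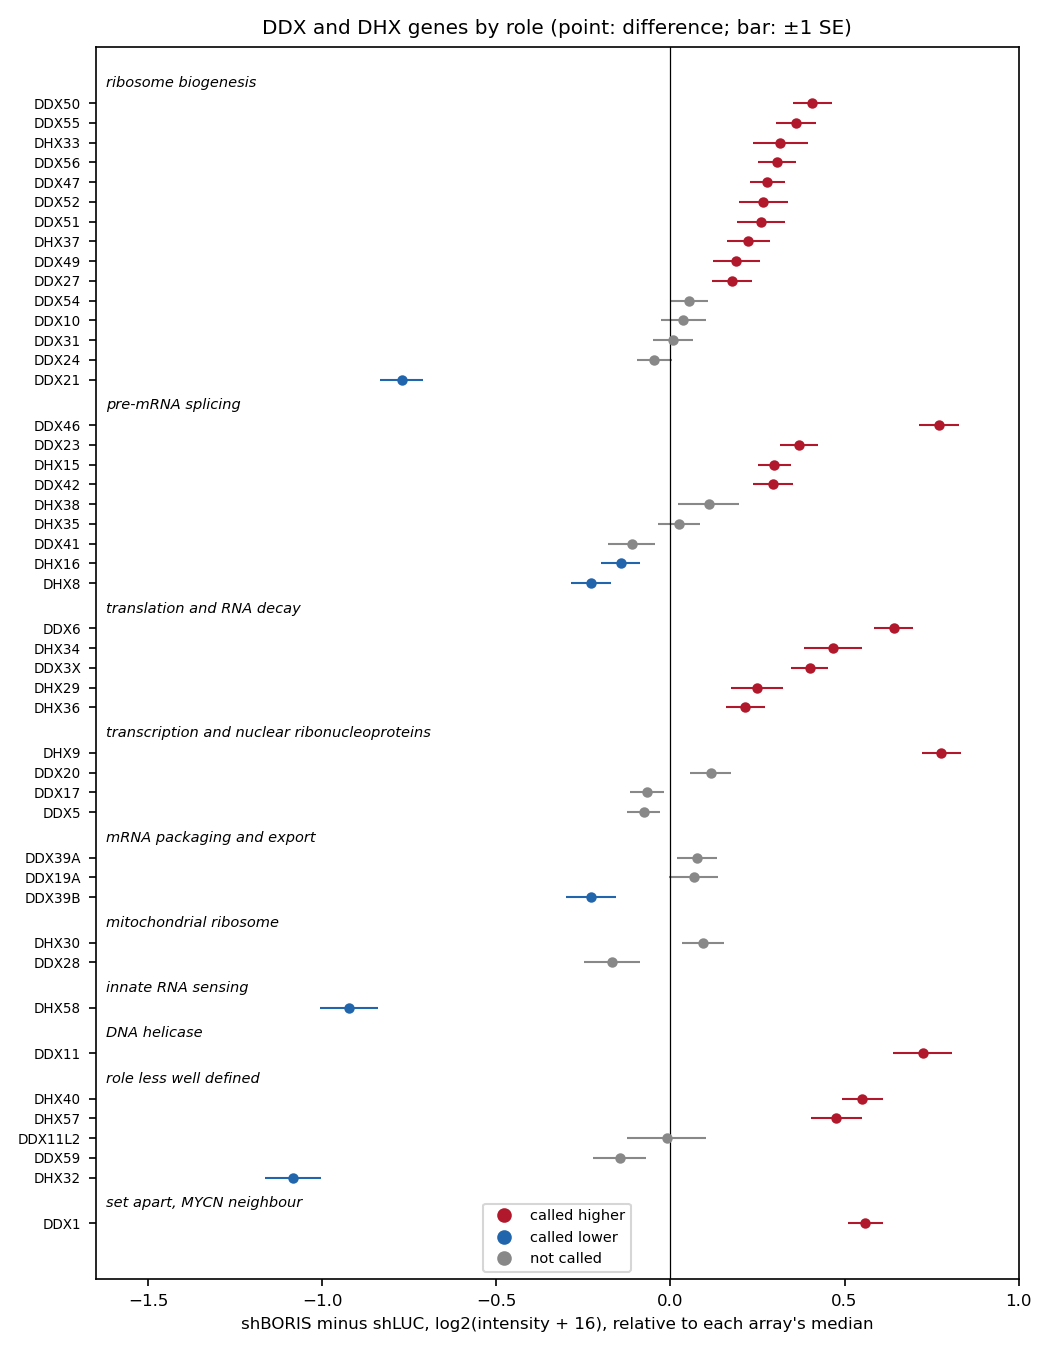
Difference between shBORIS and shLUC for each of the 46 tested DDX and DHX genes on the log2(intensity + 16) scale relative to each array's median, ordered by role. Points are limma differences and bars 1 SE (n = 2 arrays a group). Red genes were called higher, blue lower and grey neither, and the 5 tested genes of translation and RNA decay all lie to the right of 0.

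The helicases of ribosome assembly mostly rose, with 1 clear exception. These enzymes act in the nucleolus on the precursors of both ribosomal subunits. Of 15 tested, 10 rose relative to the array median (66.7%), 1 fell (6.67%) and 4 were not called, with a median of 0.22. The shares over all genes tested were 30.3% and 28.8%. As deposited 14 were higher and 1 lower, beside 77.2% and 4.64% of all genes tested. The rises lay within a narrow range, from 0.18 for DDX27 to 0.41 for DDX50.

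The exception was DDX21, a nucleolar helicase that couples RNA polymerase I transcription to processing of ribosomal RNA. Its intensity was 912 and 911 with shBORIS and 1222 and 1029.6 with shLUC, so both shBORIS arrays lay below both shLUC arrays although most genes were brighter there. DDX21 fell by 0.77 relative to the array median (log2 -0.77, SE 0.06, limma adjusted p = 5.79e-06), a 1.71-fold fall. As deposited it was lower by 0.29 (log2 -0.29, SE 0.11, adjusted p = 0.0115), a call lost without shLUC replicate 1 (-0.17, adjusted p = 0.259), with the mean of its probe sets (-0.19, adjusted p = 0.0588) and with the replicate number as a block (adjusted p = 0.113). All 3 DDX21 probe sets fell relative to the array median, at -0.77, -0.61 and -0.62.

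DDX50, the paralog of DDX21 that lies directly before it on chromosome 10, went the other way. Its intensity was 897 and 1016 on the shBORIS arrays against 526 and 494 on the shLUC arrays, higher on both shBORIS arrays, a relative rise of 0.41 (SE 0.06, limma adjusted p = 0.000159). The adjacent paralogs therefore differed in direction on the same arrays, each by its own test, and the difference between them was not itself tested. The 100 bases before the start site of each gene are shown because this pair sits side by side and diverged. The sequences are from RefSeq (GRCh38.p14, both on the plus strand, at chr10:68956070-68956169 for the first of DDX21's start sites and chr10:68901215-68901314 for DDX50). Capitals mark CGGAAGT, the core letters bound by ETS-family factors.
DDX21: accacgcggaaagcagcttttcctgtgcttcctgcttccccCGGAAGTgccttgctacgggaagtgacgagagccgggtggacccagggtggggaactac
DDX50: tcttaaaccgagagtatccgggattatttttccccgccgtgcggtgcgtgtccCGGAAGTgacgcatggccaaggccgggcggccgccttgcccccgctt
Each stretch held the 7 letters once, on the same strand, 59 bases before the start in DDX21 and 47 before it in DDX50. The 100 bases before DDX21's other start site did not hold them.

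The other rising genes of this group had separated arrays as deposited, as did all 46 helicase genes tested. The intensity of DDX55, which acts on the large subunit, was 889 and 1015 with shBORIS and 549 and 500.0 with shLUC, a relative rise of 0.36 (SE 0.06, limma adjusted p = 0.000379). That of DHX33, a nucleolar DEAH-box protein, was 719 and 890.0 on the shBORIS arrays against 448 and 462 on the shLUC arrays, a relative rise of 0.32 (SE 0.08, limma adjusted p = 0.00617), not called after quantile normalization (0.21, adjusted p = 0.064). The other probe sets of DHX33 read 0.41, 0.03 and -0.10. DDX56 read 855 and 949 with shBORIS and 539 and 496 with shLUC, a relative rise of 0.31 (SE 0.05, limma adjusted p = 0.000811). In each of these genes both shBORIS arrays lay above both shLUC arrays.

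DDX47, a factor of early precursor cleavage, read 1155 and 1231 on the shBORIS arrays against 727 and 673 on the shLUC arrays, a relative rise of 0.28 (SE 0.05, limma adjusted p = 0.00095). Its second probe set was dim (intensities 7.26 to 11.5), and the mean of the 2 was not called (0.04, adjusted p = 0.532). DDX52 read 299.98 and 292 with shBORIS and 182 and 159 with shLUC, a relative rise of 0.27 (SE 0.07, limma adjusted p = 0.0079), and DDX51 read 199 and 214 on the shBORIS arrays against 119 and 116 on the shLUC arrays, a relative rise of 0.26 (SE 0.07, limma adjusted p = 0.00879). The other probe sets of DDX52 read 0.11 and -0.08. DDX52 lost its call without shBORIS replicate 1 (adjusted p = 0.0681). DHX37, the DEAH-box enzyme that releases the U3 small nucleolar RNA from the small subunit precursor, read 449.6 and 519 with shBORIS and 307 and 276 with shLUC, a relative rise of 0.22 (SE 0.06, limma adjusted p = 0.0113); it lost its call without shBORIS replicate 2 (adjusted p = 0.1) and with a filter at the 60th percentile (adjusted p = 0.0551).

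DDX49 and DDX27 were the smallest rises. DDX49 read 469.5 and 477 on the shBORIS arrays against 287 and 297 on the shLUC arrays, a relative rise of 0.19 (SE 0.07, limma adjusted p = 0.0356), and DDX27, a large-subunit factor, read 1054 and 1132 with shBORIS and 685 and 691 with shLUC, a relative rise of 0.18 (SE 0.06, limma adjusted p = 0.0224). The call of DDX49 was lost without shBORIS replicate 1 (adjusted p = 0.148) and without shLUC replicate 1 (0.225), and that of DDX27 when shBORIS replicate 1 (0.0612), shBORIS replicate 2 (0.082) or shLUC replicate 1 (0.135) was left out. Both were also lost after quantile normalization (adjusted p = 0.167 for DDX49 and 0.483 for DDX27) and with a filter at the 60th percentile (adjusted p = 0.156 and 0.126), and DDX49 with no trend in the prior (adjusted p = 0.052).

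The 4 ribosome helicases that were not called sat close to the median gene. DDX54 read 625 and 654 on the shBORIS arrays against 458 and 417 on the shLUC arrays, a relative difference of 0.05 (SE 0.05, limma adjusted p = 0.425). DDX10 read 338 and 389 with shBORIS and 258 and 239.8 with shLUC, a relative difference of 0.04 (SE 0.06, limma adjusted p = 0.636), and DDX31 read 419.5 and 443 on the shBORIS arrays against 317 and 290.3 on the shLUC arrays, a relative difference of 0.01 (SE 0.06, limma adjusted p = 0.917). DDX24 read 1346 and 1437 with shBORIS and 1085 and 972 with shLUC, a relative difference of -0.05 (SE 0.05, limma adjusted p = 0.455), and 2 of its 5 probe sets above the filter had that sign. As deposited all 4 were higher, by 0.43 to 0.53, close to the shift of the median gene. Relative to the array median, DDX54, DDX10 and DDX24 were each called under some alternative, while DDX31 was called under none.

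Helicases of the spliceosome moved in both directions. This machine uses a fixed series of DEAD- and DEAH-box steps to assemble, activate and release its complexes. Of 9 tested, 4 rose relative to the array median (44.4%), 2 fell (22.2%) and 3 were not called, with a median of 0.11. The shares over all genes tested were 30.3% and 28.8%. As deposited all 9 were higher, beside 77.2% of all genes tested. The rises were in DDX46, DDX23, DHX15 and DDX42, and the falls in DHX16 and DHX8.

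DDX46, the human Prp5, which prepares the U2 particle to bind the branch site, had the largest rise of this group. Its intensity was 969.6 and 998 on the shBORIS arrays against 432 and 379 on the shLUC arrays. The rise was 2.38-fold as deposited and 1.71-fold after centring, a relative rise of 0.77 (SE 0.06, limma adjusted p = 3.58e-06). Both of its probe sets rose. DDX23, the human Prp28, which exchanges U1 for U6 at the 5′ splice site, read 657 and 710.4 with shBORIS and 389 and 357 with shLUC, a relative rise of 0.37 (SE 0.05, limma adjusted p = 0.000255). DHX15, the human Prp43, which takes the spent spliceosome apart, read 1799 and 1893 on the shBORIS arrays against 1111 and 1032 on the shLUC arrays, a relative rise of 0.30 (SE 0.05, limma adjusted p = 0.000454). DDX42, which binds the U2 particle, read 973 and 972 with shBORIS and 572 and 553 with shLUC, a relative rise of 0.30 (SE 0.06, limma adjusted p = 0.00142), with all 3 of its probe sets positive.

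DHX8, the human Prp22, which releases spliced mRNA, read 528 and 591 on the shBORIS arrays against 476 and 458 on the shLUC arrays. It was higher as deposited (0.25, SE 0.11, adjusted p = 0.0353) and dropped by 0.23 relative to the median (log2 -0.23, SE 0.06, limma adjusted p = 0.00664). The relative call was lost with the mean of its 3 probe sets (-0.07, adjusted p = 0.213), with no filter (-0.11, adjusted p = 0.121) and with the median of all cellular probe sets (-0.08, adjusted p = 0.317). DHX16, the human Prp2, which activates the first catalytic step, read 471 and 498 with shBORIS and 394 and 369 with shLUC. Its relative difference was -0.14 (SE 0.06, adjusted p = 0.0499), at the threshold, and the call was lost without any 1 of the 4 arrays (adjusted p = 0.0979 to 0.171). It was also lost with a pseudocount of 64 (adjusted p = 0.107), no trend in the prior (0.0671), no filter (0.697) or the median of all cellular probe sets, where it read 0.0034 (adjusted p = 0.968).

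The other 3 spliceosomal genes were not called relative to the array median. DHX38, the human Prp16, which remodels the complex between the catalytic steps, read 484 and 597 on the shBORIS arrays against 338 and 367 on the shLUC arrays, a relative difference of 0.11 (SE 0.09, limma adjusted p = 0.303), and it passed without shLUC replicate 2 (0.22, adjusted p = 0.0481). DHX35 read 336 and 363 with shBORIS and 249 and 235 with shLUC, a relative difference of 0.02 (SE 0.06, limma adjusted p = 0.743). Under some alternative DHX35 was called. DDX41, a helicase mutated in inherited leukaemia, read 903 and 842 on the shBORIS arrays against 703 and 645 on the shLUC arrays, a difference of -0.11 (SE 0.07, adjusted p = 0.175); without shBORIS replicate 1 it fell by 0.21 (adjusted p = 0.0316).

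All 5 tested helicases of translation and RNA decay rose relative to the array median, with a median of 0.40, beside 30.3% of all genes tested. DDX6, which holds repressed mRNAs in P-bodies and promotes decapping, read 902 and 912 with shBORIS and 428 and 391 with shLUC, a relative rise of 0.64 (SE 0.06, limma adjusted p = 9.19e-06). That was 2.17-fold as deposited and 1.56-fold relative. Its other 2 probe sets were dim, with intensities from 28.1 to 59.2, and read -0.26 and -0.19, so the mean of the 3 was not called (0.10, adjusted p = 0.202).

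DDX3X, which helps ribosomes start on structured leaders, read 2210.2 and 2488 on the shBORIS arrays against 1358 and 1187 on the shLUC arrays, a relative rise of 0.40 (SE 0.05, limma adjusted p = 0.000143). All 8 of its probe sets were positive, from 0.16 to 0.48. Its paralog DDX3Y lies on the Y chromosome and was below the filter; its levels are not given. DHX34, a factor of nonsense-mediated decay, read 244 and 265 with shBORIS and 118 and 131 with shLUC, a relative rise of 0.47 (SE 0.08, limma adjusted p = 0.000881), with its 3 probe sets of 1 sign. DHX29, which helps the small subunit scan, read 196 and 208 on the shBORIS arrays against 115 and 117 on the shLUC arrays, a relative rise of 0.25 (SE 0.07, limma adjusted p = 0.0147), lost without shLUC replicate 1 (adjusted p = 0.0909). DHX36, which unwinds G-quadruplexes, read 774 and 871 with shBORIS and 516 and 488 with shLUC, a relative rise of 0.22 (SE 0.06, limma adjusted p = 0.00755), lost without shBORIS replicate 2 (adjusted p = 0.0674) and after quantile normalization (adjusted p = 0.172). Its 5 probe sets were all positive.

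**Figure D2:**
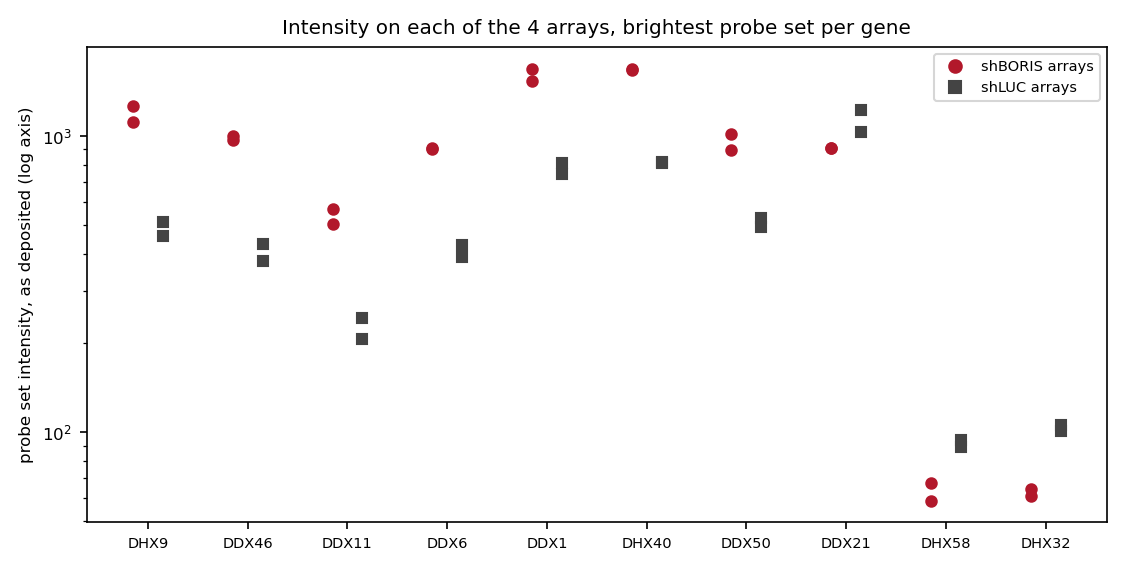
Probe set intensity as deposited (log axis) on each of the 4 arrays for 10 DDX and DHX genes, shBORIS as circles and shLUC as squares. The shBORIS arrays lie above the shLUC arrays for the first 7 genes and below them for DDX21, DHX58 and DHX32, with no overlap in any of the 10.

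Among the helicases of transcription and nuclear particles, DHX9 rose and the other 3 were not called. DHX9, or RNA helicase A, binds inverted repeats and bridges factors to RNA polymerase II, and its transcript had the largest relative rise of all 46 genes. Its intensity was 1113 and 1257 on the shBORIS arrays against 514 and 461 on the shLUC arrays. The rise was 2.39-fold as deposited and 1.71-fold after centring, a relative rise of 0.78 (SE 0.06, limma adjusted p = 3.14e-06). All 3 of its probe sets rose, by 0.78, 0.67 and 0.40.

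DDX5 and DDX17 are close paralogs that work with the microprocessor and as coregulators of transcription. DDX5 read 5195 and 5841 with shBORIS and 4339 and 4008 with shLUC, higher as deposited (0.40, SE 0.09, adjusted p = 1.85e-05) and at -0.08 relative to the array median (SE 0.05, adjusted p = 0.178). DDX17 read 3877 and 3969 on the shBORIS arrays against 3122 and 2783 on the shLUC arrays, at -0.07 (SE 0.05, adjusted p = 0.254). Both therefore kept close to the median gene. The sign of DDX5 depended on the probe set: 1 of its 5 was negative, and the mean of the 5 was called higher (0.12, adjusted p = 0.0179). With a filter at the 60th percentile DDX5 and DDX17 were called lower (-0.15 and -0.14, adjusted p = 0.0185 and 0.0301).

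DDX20 (Gemin3) belongs to the SMN complex, which loads Sm proteins on small nuclear RNAs. It read 555 and 599.6 with shBORIS and 404 and 352 with shLUC, a relative difference of 0.12 (SE 0.06, limma adjusted p = 0.116), and was called higher with no filter (adjusted p = 0.00872), with the mean of its probe sets (0.0357) and with the median of all cellular probe sets (0.00539). Of the other 8 genes of that complex, 2 rose (25%), 2 fell (25%) and 4 were not called, with a median of 0.01. These shares were near the 30.3% and 28.8% of all genes tested. GEMIN5, which recognises the small nuclear RNAs, rose by 0.31 (adjusted p = 0.001), and GEMIN8 fell by 0.35 (log2 -0.35, adjusted p = 0.00974), though as deposited GEMIN8 read 0.13 (adjusted p = 0.292).

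The genes of mRNA packaging and export are paralog pairs, and their readings depended on which probe sets name 1 gene alone. DDX39A and DDX39B (UAP56) load the export complex TREX on mRNA. DDX39A read 879 and 888 on the shBORIS arrays against 600.5 and 593 on the shLUC arrays, a relative difference of 0.08 (SE 0.06, limma adjusted p = 0.282). Under some alternative DDX39A was called. DDX39B had 1 probe set of its own, at 163 and 163 with shBORIS and 142 and 128 with shLUC, which was higher as deposited (0.25, SE 0.11, adjusted p = 0.025) and dropped by 0.23 relative to the median (log2 -0.23, SE 0.07, limma adjusted p = 0.019). The relative call was lost when shBORIS replicate 2 (adjusted p = 0.118) or shLUC replicate 1 (0.0674) was left out, with no filter (0.205), after quantile normalization (0.0619) and with the median of all cellular probe sets (0.355). As deposited it was lost when shBORIS replicate 1 (adjusted p = 0.0709), shBORIS replicate 2 (0.0791) or shLUC replicate 2 (0.205) was left out and with the replicate number as a block (0.0905).

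A further 7 probe sets name DDX39B together with ATP6V1G2, the gene next to it on chromosome 6. All 7 were positive relative to the array median, from 0.05 to 0.41, and the brightest of them read 0.13 (adjusted p = 0.101). Their mean intensities were 478 to 3790, against 149 for the probe set that names DDX39B alone. The fall counted for DDX39B thus rests on a dimmer probe set than any of these 7. Which gene they measured cannot be told apart, and ATP6V1G2's own brightest probe set, at a mean intensity of 289, read -0.18 (adjusted p = 0.0345).

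DDX19A, which remodels mRNA at the cytoplasmic face of the nuclear pore, read 159.7 and 172 on the shBORIS arrays against 116 and 102 on the shLUC arrays, a relative difference of 0.07 (SE 0.07, limma adjusted p = 0.443). It was called higher with the mean of its probe sets (0.19, adjusted p = 0.0106) and with the median of all cellular probe sets (0.21, adjusted p = 0.0254). Its paralog DDX19B was below the filter, at 61.1 and 61.0 with shBORIS and 49.9 and 50.6 with shLUC. A probe set that names both read -0.12 (adjusted p = 0.138). DDX25, the testis paralog of DDX19, was also below the filter, at 61.8 and 48.8 against 33.0 and 29.1.

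**Figure D3:**
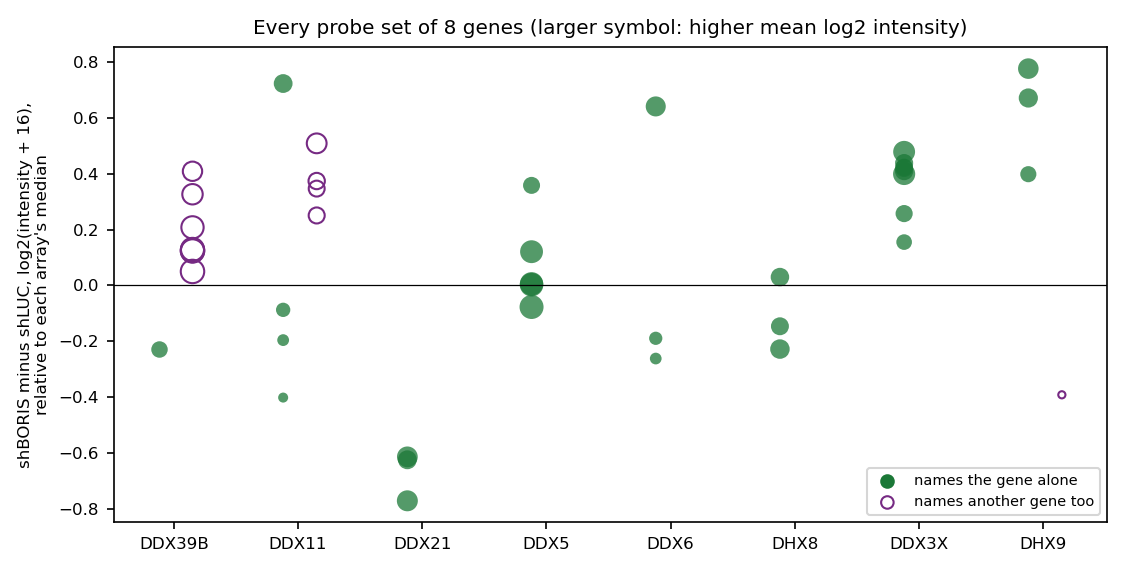
Difference between shBORIS and shLUC on the log2(intensity + 16) scale relative to each array's median for every probe set of 8 genes, filled where the probe set names the gene alone and open where it names another gene too. Larger symbols are brighter probe sets. The 3 DDX21 probe sets lie below 0 and the 8 DDX3X ones above it, while DDX39B, DDX11, DDX5, DDX6, DHX8 and, with its dim shared probe set, DHX9 hold both signs.

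Neither helicase of the mitochondrial ribosome was called relative to the array median. DHX30 read 651 and 707 with shBORIS and 452 and 451 with shLUC, a relative difference of 0.09 (SE 0.06, limma adjusted p = 0.197), called higher with no filter (adjusted p = 0.0119), with the mean of its probe sets (0.0101) and with the median of all cellular probe sets (0.00728). DDX28 read 116 and 132 on the shBORIS arrays against 106 and 88.3 on the shLUC arrays, a difference of -0.17 (SE 0.08, adjusted p = 0.0952), called lower with a pseudocount of 64 (-0.18, adjusted p = 0.0186). As deposited the call of DDX28 (0.31, SE 0.11, adjusted p = 0.00647) was lost when shBORIS replicate 2 (adjusted p = 0.119) or shLUC replicate 2 (0.177) was left out.

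The sensor gene DHX58 fell on both scales. It encodes LGP2, which regulates the cytosolic RNA sensors RIG-I and MDA5. Its intensity was 58.7 and 67.2 with shBORIS and 93.9 and 89.0 with shLUC, lower on both shBORIS arrays, a fall of 0.92 relative to the array median (log2 -0.92, SE 0.08, limma adjusted p = 1.13e-05) and of 0.45 as deposited (log2 -0.45, SE 0.11, adjusted p = 0.000143). All 4 of its probe sets were negative as deposited, from -0.06 to -0.45. The shBORIS intensities lie at the filter's 62.2, so the size is approximate.

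The other sensor-related genes were dim and not tested. DDX60 read 21.0 and 28.1 with shBORIS and 19.6 and 19.5 with shLUC, and DDX60L read 26.5 and 21.9 against 24.3 and 32.6. IFIH1, which encodes MDA5 and carries no DDX symbol, read 11.4 and 9.86 with shBORIS and 48.0 and 34.8 with shLUC. RIGI, formerly DDX58 and left out by its present symbol, read 32.1 and 32.2 against 24.0 and 24.9. All of these lie under the filter, so their differences were not tested.

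DDX11 is an iron-sulphur DNA helicase of sister chromatid cohesion and replication, not an RNA helicase. It read 566 and 505 on the shBORIS arrays against 242 and 206 on the shLUC arrays, 2.30-fold higher as deposited and 1.65-fold relative, a relative rise of 0.72 (SE 0.08, limma adjusted p = 5.31e-05). Its other 3 single-symbol probe sets were dimmer (18.7 to 83.2) and read -0.09, -0.20 and -0.40, so the mean of the 4 was not called (0.05, adjusted p = 0.46). A further 4 probe sets shared with the copies DDX12P or LOC642846 rose, by 0.25 to 0.51. The value of DDX11 is uncertain, since near-identical copies can bind the same probes.

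Among genes of less well defined role, DHX40 and DHX57 rose and DHX32 fell. DHX40 read 1686 and 1666 with shBORIS and 817 and 810.1 with shLUC, with duplicates close together, a relative rise of 0.55 (SE 0.06, limma adjusted p = 3.14e-05), and its 3 probe sets gave 0.54 to 0.58. DHX57 read 367 and 432 on the shBORIS arrays against 197 and 199 on the shLUC arrays, a relative rise of 0.48 (SE 0.07, limma adjusted p = 0.000311). Its other 2 probe sets had identical values on every array and read 0.14.

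DHX32, a DEAH-box protein with an altered motif, had the largest fall of all. Its only probe set read 60.7 and 64.1 with shBORIS and 106 and 101 with shLUC, lower on both shBORIS arrays. It fell by 1.08 relative to the array median (log2 -1.08, SE 0.08, limma adjusted p = 4.01e-06), a 2.12-fold fall, and by 0.61 as deposited (log2 -0.61, SE 0.11, adjusted p = 1.98e-07). The shBORIS values lie at the filter, so the size is approximate.

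DDX59 read 159 and 153 on the shBORIS arrays against 126 and 115 on the shLUC arrays, at -0.15 (SE 0.08, adjusted p = 0.123), with 4 of 4 probe sets negative; it was called lower with a pseudocount of 64 (-0.15, adjusted p = 0.0431), and its call as deposited was lost without shLUC replicate 2 (adjusted p = 0.052). The pseudogene DDX11L2 read 96.7 and 131 with shBORIS and 73.0 and 81.2 with shLUC, a relative difference of -0.01 (SE 0.11, limma adjusted p = 0.946), and its call as deposited (0.47, SE 0.11, adjusted p = 4.59e-05) was lost without shBORIS replicate 2 (adjusted p = 0.0608). It has near-identical copies and is uncertain. The germ-line genes DDX43 and DDX53 were below the filter. DDX43, a cancer-testis antigen, read 43.3 and 43.6 with shBORIS and 31.4 and 31.7 with shLUC, and DDX53 read 15.04 and 18.2 against 16.9 and 14.4, which overlap.

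DDX1 is set apart because it lies between NBAS and MYCN on chromosome 2 and is often amplified together with MYCN. Its intensity was 1533 and 1685 on the shBORIS arrays against 808 and 743 on the shLUC arrays, so both shBORIS arrays were higher, 2.05-fold as deposited and 1.47-fold after centring, a relative rise of 0.56 (SE 0.05, limma adjusted p = 1.14e-05). Its relative difference was 0.46 to 0.71 under every alternative run. Of its neighbours, MYCN read 5727 and 6041 against 5347 and 5280, which was 0.15 as deposited (adjusted p = 0.11) and a relative fall of 0.33 (log2 -0.33, SE 0.05, adjusted p = 0.000192). NBAS read 1093 and 1224 against 909 and 806, at -0.05 (adjusted p = 0.463), and CYRIA 384 and 374 against 245 and 238, at 0.14 (adjusted p = 0.0991). Differences between these genes were not tested, and copy number was not measured. Without DDX1, 23 of 45 helicase genes rose and 6 fell.

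DDX1 is also a subunit of the tRNA ligase complex, which joins the exons of tRNAs and of the XBP1 mRNA after intron removal. Of the other 6 genes of that complex, 4 rose relative to the array median (66.7%), none fell and 2 were not called, with a median of 0.25. The shares over all genes tested were 30.3% higher and 28.8% lower. FAM98B read 1281 and 1262 with shBORIS and 564 and 503 with shLUC, a rise of 0.75 (SE 0.06, adjusted p = 4.62e-06), and FAM98A rose by 0.52 (adjusted p = 4.17e-05). RTCB, the ligase itself, chosen after its value was seen, read -0.07 (adjusted p = 0.236).

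Helicases of the same superfamily under other names were counted in the same way. Of 11 tested, 6 rose (54.5%), 1 fell (9.09%) and 4 were not called, with a median of 0.17, beside 30.3% and 28.8% of all genes tested. ASCC3, which splits stalled ribosomes, rose by 0.52 (adjusted p = 0.000118). EIF4A1, the founding DEAD-box protein, which unwinds leaders for translation, dropped by 0.41 relative to the median (log2 -0.41, adjusted p = 3.89e-05) but read 0.06 as deposited (adjusted p = 0.455).

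Proteins that bind and regulate these enzymes were counted beside the 30.3% of all genes tested that were called higher and the 28.8% called lower, and no difference from other genes was tested. Of 16 G-patch proteins, which activate DEAH-box helicases, 7 rose (43.8%) and none fell, led by GPATCH4 at 0.53 (adjusted p = 2.90e-05) and the splicing factor RBM17 at 0.39 (adjusted p = 0.000233). Of 18 cofactors of DEAD-box helicases, activators and inhibitors together, 8 rose (44.4%) and 2 fell (11.1%), with a median of 0.17. MAGOH, which locks EIF4A3 on RNA in the exon junction complex, rose by 0.68 (adjusted p = 3.95e-05), and THOC2, of the complex that DDX39B belongs to, by 0.64 (adjusted p = 1.85e-05). Of 5 partners of DDX6, 4 rose (80.0%) and 1 fell (20.0%). The paralogs LSM14B and LSM14A, scaffolds of P-bodies, went opposite ways, with LSM14B at 935 and 1085 against 473 and 479.7, a rise of 0.58 (adjusted p = 4.60e-05), and LSM14A at 666 and 747 against 742 and 705, a relative fall of 0.51 (log2 -0.51, adjusted p = 3.43e-05) that read -0.03 as deposited (adjusted p = 0.783).

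**Figure D4:**
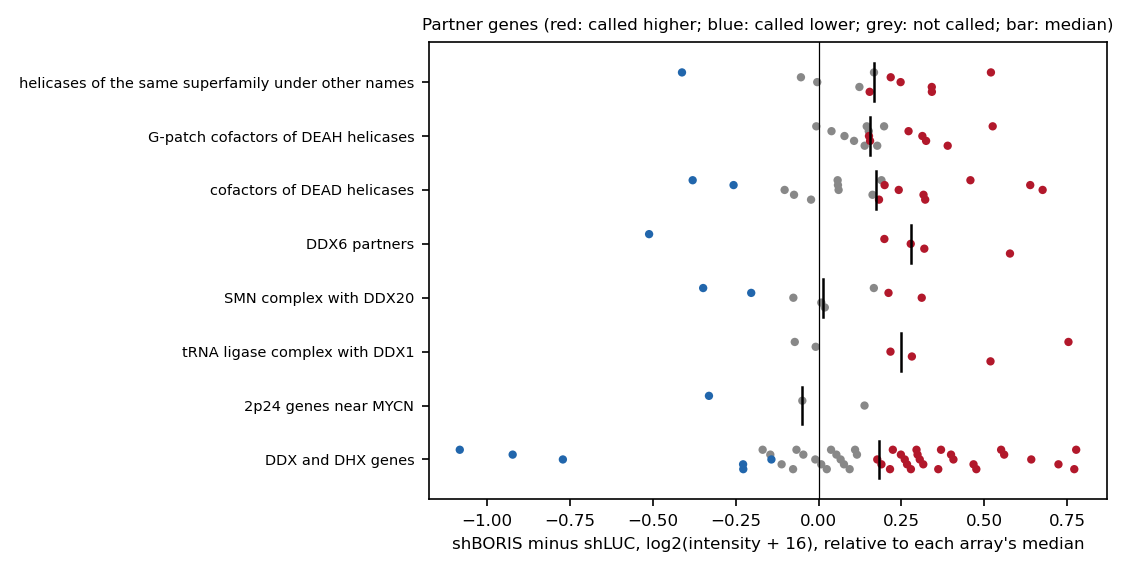
Difference between shBORIS and shLUC on the log2(intensity + 16) scale relative to each array's median for the tested genes of 7 partner lists and for the 46 DDX and DHX genes, with bars at the medians. Red points were called higher, blue lower and grey neither. The medians of 6 of the 7 lists lie above 0, from 0.01 to 0.28, and that of the 3 genes near MYCN at -0.05.

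Promoter sequence was looked at because many of the genes moved together and the cells carry amplified MYCN, whose product binds the E-box CACGTG. RefSeq windows of 300 bases, 250 before and 50 after a start site, were matched for 48 of the 53 genes. A gene counted as holding the letters if any of its windows did, so shares of genes and shares of windows are unlike measures. CACGTG, the same on both strands, was in a window of 10 of the 48 (20.8%), which include genes not tested. It was in 13.0% of the 9054 tested genes with a window and in 7.26% of all windows. The genes holding it went both ways: 3 of the 21 rising genes with a window held it (DHX34, DHX37 and DHX40), 2 of the 5 falling ones (DDX21 and DHX32) and 4 of the 15 not called. The sites of 4 of these 5 are shown with up to 12 bases on either side, capitals marking the E-box (GRCh38.p14, at chr10:68956604-68956633 on the plus strand, chr10:125881390-125881419 on the minus strand, chr17:59565448-59565477 on the plus strand and chr12:124989082-124989102 on the minus strand, in that order).
DDX21: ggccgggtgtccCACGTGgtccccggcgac
DHX32: ggattaggtgacCACGTGattgattagcct
DHX40: caaggcgaagcgCACGTGgcagttggcggg
DHX37: ggtctgggaaccCACGTGggc
The E-box began 31 bases before a start site in DDX21, 115 before it in DHX32 and 150 before it in DHX40, and at base 42 after it in DHX37.

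BORIS shares the DNA-binding fingers of CTCF, so AGGGGGC, core letters of the CTCF consensus, was searched on both strands as well. It was in a window of 10 of the 48 genes (20.8%), 8 of these 10 being tested genes, in 26.1% of the 9054 tested genes with a window and in 14.4% of all windows. It was in 4 of the 21 rising genes with a window (DHX9, DDX6, DDX47 and DHX37), 1 of the 5 falling ones (DHX16) and 3 of the 15 not called. DHX9, the largest rise, held it 97 and 22 bases before its start on the reverse strand, and DDX6 held it 7 bases before a start. These are shown with 12 bases on either side, capitals marking the letters (GRCh38.p14, chr1:182839238-182839268 and chr1:182839313-182839343 on the plus strand, and chr11:118791153-118791183 on the minus strand).
DHX9, first: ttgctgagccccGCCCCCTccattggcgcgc
DHX9, second: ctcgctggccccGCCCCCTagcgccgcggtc
DDX6: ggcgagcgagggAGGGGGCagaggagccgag
A match describes letters in these windows and not binding.

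The ETS-type letters seen beside DDX21 and DDX50 were searched last, after those sequences had been read, on both strands. CGGAAGT was in a window of 16 of the 48 genes (33.3%), in 15.97% of the 9054 tested genes with a window and in 6.83% of all windows. It was in 10 of the 21 rising genes with a window, 3 of the 5 falling ones (DDX21, DDX39B and DHX8) and 3 of the 15 not called. These counts include DDX21 and DDX50, whose sequences prompted the search and whose matches were known beforehand. The median GC content of the 100 bases before the start was 65% in the windows of the helicase genes and 60% in all windows, and its part in these shares was not tested.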

How the data were processed

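Gene expression was measured on 4 Affymetrix PrimeView arrays, 2 with shBORIS and 2 with shLUC. Per the labels' protocols, ERCC RNAs were spiked into total RNA, of which 100 ng was labelled with biotin. The authors deposited a linear intensity for each probe set and array. The submitters' processing notes name affy, MAS5 and R 3.1.3 with no roles, and the sources used here do not say how the arrays were scaled. ERCC medians were 24.4 to 25.8 on the 4 arrays.

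From 45278 probe sets with 1 symbol (RefSeq GRCh38.p14 names by Entrez identifier), each of 18244 genes took its brightest by mean over the arrays. Genes under the 40th percentile of that mean were left out. Limma 3.58.1 in R 4.3.3 was fitted to log2(intensity + 16) with the hairpin as the only term, an intensity trend in the prior and 2 residual degrees of freedom, over 10946 genes, as deposited and after subtracting each array's median over those genes. As deposited, the prior took infinite degrees of freedom, so its very small p-values should not be taken at face value. P-values were two-sided and adjusted by Benjamini-Hochberg over all genes tested. The fit was tested on simulated data. Probe sets that name a helicase with another gene, 13 in all, were left out of the fit. The precision is limited by the number of arrays.

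The members, roles, partner lists and named genes were chosen with earlier results of these data known. Named genes were DDX1, the 8 largest relative rises and falls, paralog pairs, and members not called; the other rises are given beyond that rule. The 2 largest differences were named in each partner list. Alternatives changed the pseudocount, filter, probe set rule, prior, scaling, replicate block or arrays used. Letters of a promoter motif were searched in both strands of RefSeq windows.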

Additional observations from a re-analysis of the deposited data

Results flagged for a closer look

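Of the 13 probe sets outside the comparison, which name a helicase together with another gene, 8 were called higher than on the control arrays. Relative to the array median, 4 of the 7 that name DDX39B and ATP6V1G2 rose, by 0.13, 0.41, 0.33 and 0.21 (limma adjusted p = 0.0438, 0.000526, 0.000499 and 0.00434). This is the opposite direction to the probe set that names DDX39B alone, at -0.23. All 4 that name DDX11 with its copies rose, by 0.51 and 0.25 with DDX12P and LOC642846 (adjusted p = 2.24e-05 and 0.0192) and by 0.35 and 0.37 with LOC642846 (adjusted p = 0.00314 and 0.00155). The probe set of DHX9 and LOC646813 went the other way (-0.39, adjusted p = 0.018), at dim intensities that overlapped between the groups, and that of DDX19A and DDX19B read -0.12 (adjusted p = 0.138). Which of the named genes each measured cannot be told apart.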

How the results depend on the processing

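As deposited, the count of helicase genes called higher was 36 to 45 under every alternative and 38 to 42 without each array in turn, and the count called lower was 2 or 3, except 1 with a filter at the 60th percentile, which leaves out DHX32 and DHX58. Relative to the array median, 19 to 32 were called higher, 21 to 25 without each array in turn, and 3 to 7 lower, with 3 under the median of all cellular probe sets and 4 to 6 without each array in turn. With the replicate block 40 were higher and 2 lower as deposited, and 24 and 6 relative to the array median. The deviations of same-numbered arrays from their group means, after median centring, correlated at 0.098. With 2 arrays a group, this cannot show whether same-numbered arrays were handled together. The block ended the deposited calls of DDX21, DDX39B, DHX8 and DHX16, and no other call of these genes. DDX1 read 0.97 to 1.10 as deposited without each array in turn. Of 24 relative rises, 14 kept direction and call under every alternative, as did 3 of 6 falls (DHX32, DHX58 and DDX21). Of the 16 genes not called relative to the array median, only 2 stayed so under every alternative, and the rest were called under some alternative. The sign turned for DDX39B with shared probe sets admitted (0.13, an alternative added after the data were seen), for DHX16 with the median of all cellular probe sets (0.0034) and for DDX5 with the mean of its probe sets (0.12); the cause was not tested. A change of sign in a gene called under neither setting was not counted. Of the deposited calls, DHX8 lost its own with ERCC centring (adjusted p = 0.052) and without shBORIS replicate 2, shLUC replicate 1 or shLUC replicate 2 (0.301, 0.0609 and 0.142), and DHX16 without shBORIS replicate 2 or shLUC replicate 2 (0.0668 and 0.0514). Dim probe sets carry little signal over background, which limits the sizes given for DHX32 and DHX58.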
